A study of Mus musculus with 12 samples.

Results

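Fas, Tnfrsf10b, Bid, Apaf1, Bbc3, Perp, Ei24, Casp8 and Casp9 are 9 mouse genes of the death receptor and mitochondrial routes of apoptosis. They were chosen by name, and every probe set that the arrays carry for them was read, which gave 13 of the 20050 probe sets tested, or 9 of 12255 genes. All 13 were tested, and the probe set of Fas and both probe sets of Tnfrsf10b were among the dimmest 25%. The arrays came from aTC1 (αTC1) cells, called alpha cells here, and bTC3 (βTC3) cells, called beta cells. The alpha line was derived from a tumour of glucagon cells and the beta line from a tumour of insulin cells, each in mice with the SV40 T antigen under the promoter of that hormone. T antigen binds p53, and both lines carry it in every group. The 4 groups were alpha cells in 0.1% DMSO, alpha cells with 3.3 µM GW8510 in 0.1% DMSO, beta cells in 0.1% DMSO and beta cells with 3.3 µM GW8510 in 0.1% DMSO. Cells were treated until day 5, with 3 biological replicates a group. GW8510 is a kinase inhibitor thought to act on CDK2, and DMSO is its solvent. Each line is a single cell line, and the labels of the beta samples repeat the culture medium of the alpha line. Line, tumour and culture therefore cannot be told apart.

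Apoptosis can begin at the cell surface or at the mitochondrion. Death receptors such as FAS bind a ligand, gather an adaptor and activate caspase 8, which can cleave BID and so pass the signal to the mitochondrial route. BH3-only proteins such as BID and PUMA, the product of Bbc3, favour the permeation of the outer mitochondrial membrane, cytochrome c then assembles APAF1 into the apoptosome, and the apoptosome activates caspase 9. The transcription factor p53 is known to raise the expression of Fas, Tnfrsf10b, Bid, Apaf1, Bbc3, Perp and Ei24, whereas caspases are mainly controlled after translation.

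The values are array intensities, and a comparison counts as passed at a limma adjusted p under 0.05 over all probe sets tested. Median intensities were 173.7 to 182 on 11 arrays, and beta GW8510 replicate 3 had 199.9. The deposited values lie between 20 and 20000. Within each group the replicates correlated at 0.994 or higher across probe sets, which are not independent. Gcg was at the upper bound on all alpha arrays and Ins2 and Iapp on all beta arrays, so the hormone gene that defines each line was present. The beta arrays also held Gcg, at 5997 to 6647 with DMSO and 11305 to 12890 with GW8510 (adjusted p = 9.06e-07), and Sst, at 17084 to 18296 with DMSO and at the upper bound with GW8510. Ttr, listed as an alpha cell marker, was at the upper bound on all beta arrays and at 7864 to 8884 in alpha cells with DMSO. With DMSO the summed intensity of 3 alpha cell markers was 29693 to 30797 in alpha cells and 26249 to 26938 in beta cells. The upper bound caps both sums. Markers of alpha and beta cells moved with GW8510 as well. In alpha cells Pdx1 rose 5.28-fold (adjusted p = 2.1e-10), Iapp 2.73-fold (adjusted p = 2.87e-08), Ttr 2.38-fold to the upper bound or close to it (adjusted p = 6.18e-09) and Ins2 1.56-fold (adjusted p = 0.00038), and Irx2 was at 0.732 of its control (adjusted p = 0.00031). In beta cells Slc2a2, the glucose transporter GLUT2, read only 82.3 to 91.6 with DMSO and rose 34.7-fold (adjusted p = 1.22e-12). Pdx1 and Nkx6-1 were at 0.870 and 0.830 of their controls there (adjusted p = 0.0367 and 0.0423). Ptprc, the leukocyte antigen CD45, was between 20 and 23.7 on all arrays. Of 8 markers of other islet and pancreas cells, 2 rose with GW8510 in each line, Krt7 and Cela1. The summed intensity of the 8 was 1681 to 1731 with DMSO and 3310 to 3344 with GW8510 in alpha cells, and 17644 to 18860 and 20782 to 20835 in beta cells. Most of that sum is Krt7 in alpha cells (828 to 887 with DMSO and 2208 to 2287 with GW8510) and Sst in beta cells, where the bound caps it. Of 9 markers of macrophages, endothelium and fibroblasts, none passed in alpha cells and Col1a2 rose in beta cells, where the summed intensity was 539 to 612 with DMSO and 708 to 817 with GW8510. The part of these shifts in the results on the apoptosis genes was not tested. Because an array reads a whole culture, fewer cells of a type and less RNA per cell cannot be told apart.

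Promoter windows from 250 bases before to 50 bases after the transcription start were taken from RefSeq on GRCm38.p6, and 7 of the 9 genes have one, with 3 for Bbc3. Perp and Tnfrsf10b have no entry. The 100 bases before the start are shown for Fas, Apaf1 and Ei24, since these 3 genes rose in alpha cells and did not pass in beta cells. They were picked for that response. They lie at chr19:34290559-34290658 on the plus strand (Fas), chr10:91082744-91082843 on the minus strand (Apaf1) and chr9:36797335-36797434 on the minus strand (Ei24). Capitals mark GGGCGG, read on either strand, the core letters of a GC box, and in Ei24 a p53 half-site.
Fas: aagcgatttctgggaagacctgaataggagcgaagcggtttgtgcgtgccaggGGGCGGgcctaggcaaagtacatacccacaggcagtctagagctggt
Apaf1: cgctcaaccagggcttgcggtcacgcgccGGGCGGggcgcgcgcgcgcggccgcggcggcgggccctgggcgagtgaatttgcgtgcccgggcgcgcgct
Ei24: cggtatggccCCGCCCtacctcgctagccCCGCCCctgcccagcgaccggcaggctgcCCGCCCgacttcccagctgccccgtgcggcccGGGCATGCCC
In the whole 300-base windows, a p53 half-site was found for Ei24 alone among the 7 genes, as GGGCATGCCC from base -10 to -1, and such a match is in 8.36% of all 32851 windows. TATAAA was in no window of the 7 genes and in 13.6% of all windows. CCAAT was in 1 of the Bbc3 windows and in that of Casp8, and in 37.4% of all windows. GGGCGG was in every one of the 9 windows except that of Casp8, and in 35.7% of all. The GC content was 42% in the Casp8 window and 59% (Fas) to 78% (a Bbc3 window) in the others, beside a median of 52.7% over all windows. No match of the half-site and GGGCGG overlapped in Ei24, and these matches are descriptions of letters, not binding sites.

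In alpha cells, GW8510 raised 8 of the 13 probe sets, lowered 1 and left 4 that did not pass. Over all probe sets tested, 39.6% passed, 18.8% upward and 20.8% downward. By gene, read from the brightest probe set, Fas, Bid, Apaf1, Bbc3, Perp and Ei24 rose, Casp9 fell, and Tnfrsf10b and Casp8 did not pass, where 19.9% of all genes rose and 21.0% fell. In beta cells 4 of the 13 probe sets rose, for Bid, Bbc3, Perp and Casp9, none fell and 9 did not pass. The background there was 32.4%, with 18.6% upward and 13.8% downward. The median log2 fold change of the 13 was 0.54 in alpha cells and 0.14 in beta cells, beside 0.02 and 0.06 over all probe sets tested. The GW8510 and DMSO arrays lay entirely apart for 9 of the 13 in alpha cells, 8 of them upward, and for 5 in beta cells, all upward. Upward separation was seen for 24.6% of all probe sets in alpha cells and 27.1% in beta cells, and downward separation for 25.4% and 17.3%.

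**Figure D1:**
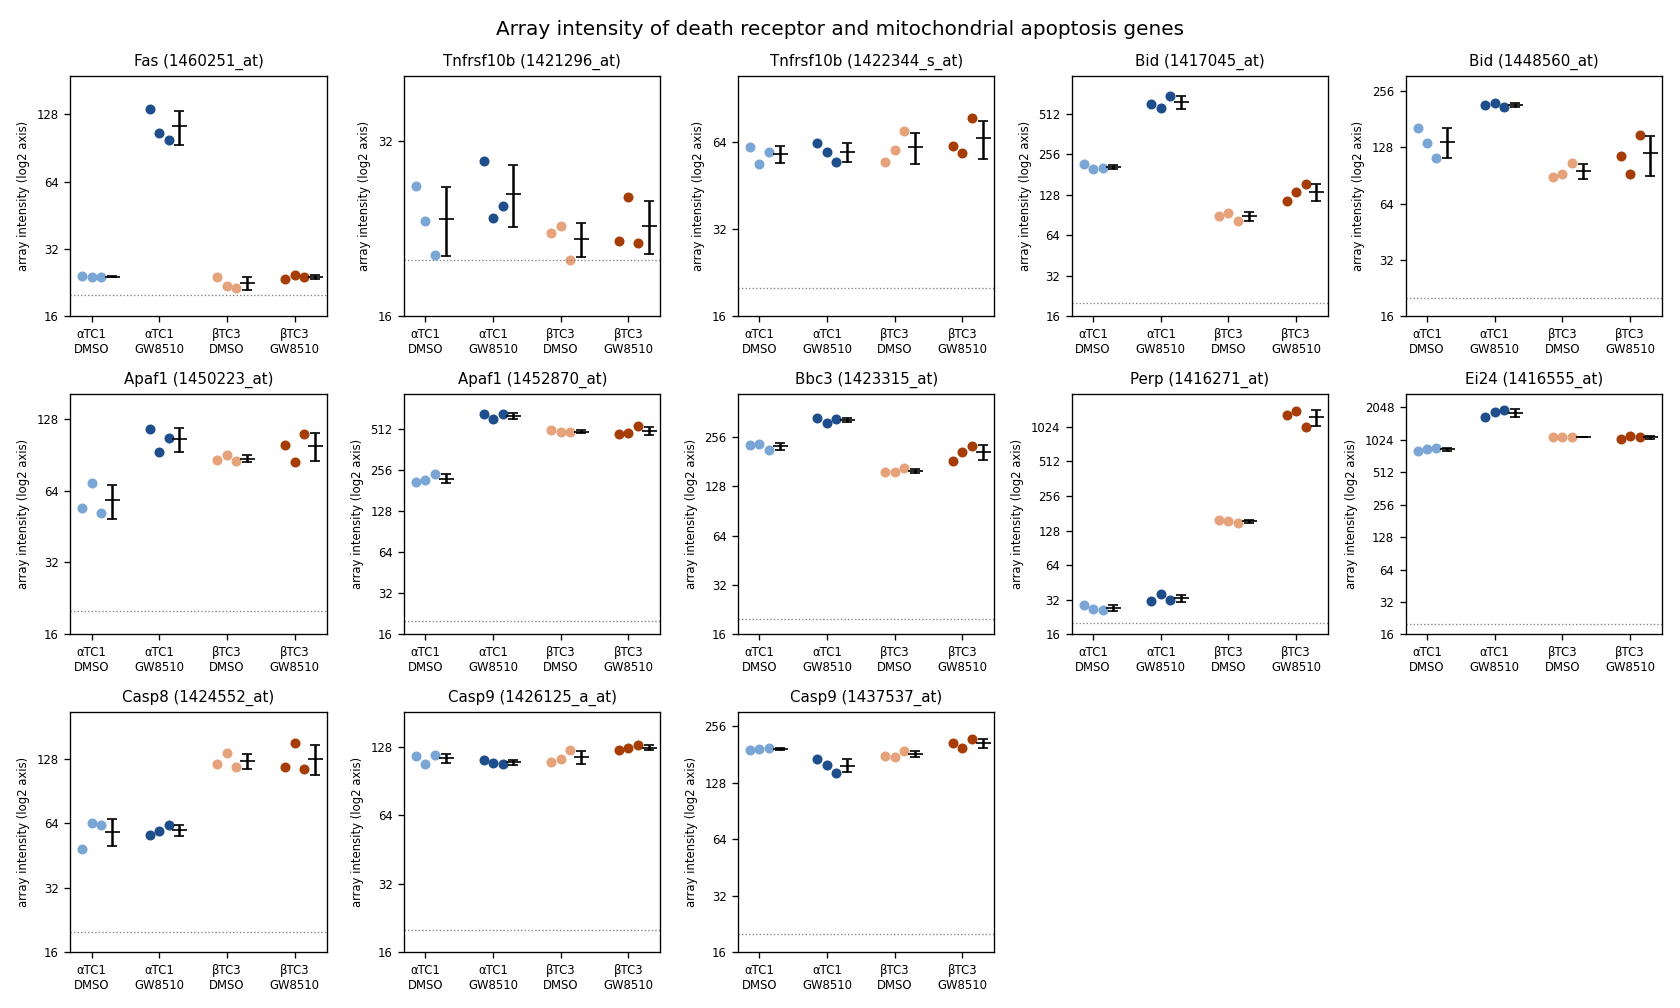
Array intensity (log2 axis) of the 13 probe sets on each of the 12 arrays, by line and treatment. Points are single arrays, the bar is the mean ± SD of 3 arrays, and the dotted line is the lower bound of 20. Fas leaves the level near the bound only in alpha cells with GW8510 (97.8 to 136), whereas Perp is at 25.9 to 35.8 on all alpha arrays and at 1022 to 1409 in beta cells with GW8510.

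Fas encodes the death receptor that binds FAS ligand. Its only probe set (1460251_at) read 24.3, 24.1 and 23.9 on the alpha DMSO arrays and 136, 105 and 97.8 on the alpha GW8510 arrays. The beta arrays read 24.1, 21.8 and 21.5 with DMSO and 23.6, 24.6 and 24.0 with GW8510. The alpha GW8510 arrays thus stood apart from the other 9, which all lay close to the lower bound. On an alpha DMSO array 7.23 to 7.52% of all probe sets were dimmer than Fas, and with GW8510 39.1 to 44.2% were. The mean rose from 24.1 ± 0.174 to 113 ± 19.96 (SD, n = 3 each), a log2 fold change of 2.21 (SE 0.10, limma adjusted p = 1.01e-08) or 4.64-fold, with a 95% confidence interval of 3.99 to 5.40. By size this change ranked 94 of 20050. In beta cells the log2 fold change was 0.10, with an interval of -0.12 to 0.32 (adjusted p = 0.496). All beta arrays read 21.5 to 24.6, next to the lower bound, so that interval sets no limit on the fold change of the transcript. No beta array reached the 97.8 to 136 of the treated alpha arrays.

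Tnfrsf10b encodes the receptor for TRAIL, a ligand related to FAS ligand. Its probe set 1421296_at read 20.4 to 26.7 on the alpha DMSO arrays, 23.6 to 29.5 with GW8510, 20 to 22.8 in beta cells with DMSO and 21.4 to 25.6 with GW8510. The groups overlapped, 1 array was at the lower bound, and on no array were more than 9.25% of all probe sets dimmer. The brighter probe set 1422344_s_at read 53.9 to 61.4, 54.8 to 63.4, 54.8 to 69.8 and 59.0 to 77.5 in the same order of groups, and these ranges overlapped as well. In alpha cells the log2 fold changes were 0.15 (95% interval -0.11 to 0.40, adjusted p = 0.365) and 0.02 (-0.23 to 0.27, adjusted p = 0.907). In beta cells they were 0.07 (-0.18 to 0.33, adjusted p = 0.678) and 0.10 (-0.15 to 0.35, adjusted p = 0.544). Both receptors were therefore dim in DMSO, and of the pair a rise passed for Fas alone. Because 1421296_at read 20 to 29.5, next to the lower bound, its intervals set no limit on the fold change of the transcript.

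Casp8, the initiator caspase of the death receptors, did not pass in either line. Its probe set (1424552_at) read 48.8, 64.1 and 62.8 in alpha cells with DMSO and 56.6, 58.6 and 63.1 with GW8510. The beta arrays read 121, 136 and 117 with DMSO and 118, 151 and 114 with GW8510. Treated and control arrays overlapped in both lines, while all beta arrays lay above all alpha arrays. The log2 fold change was 0.03 in each line, with an interval of -0.24 to 0.30 in both (adjusted p = 0.882 in alpha and 0.896 in beta cells).

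Bid, the BH3-only gene whose product caspase 8 cleaves, rose in both lines. On probe set 1417045_at the alpha arrays read 216, 200.75 and 202 with DMSO and 608, 566 and 698 with GW8510. The beta arrays read 88.9, 94.4 and 81.8 with DMSO and 116, 134 and 154 with GW8510. In both lines every treated array lay above every control array, and the treated beta arrays stayed below the alpha controls. The change was 3.01-fold in alpha cells (log2 1.59, SE 0.11, adjusted p = 2.32e-07), from 206 ± 8.48 to 624 ± 67.6, and 1.51-fold in beta cells (log2 0.60, SE 0.11, adjusted p = 0.000995), from 88.4 ± 6.31 to 134.5 ± 19.1. Without beta GW8510 replicate 3, the array with the high median, the beta change was 0.50 on the log2 scale (adjusted p = 0.00404).

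The second probe set of Bid, 1448560_at, gave smaller changes. It read 163, 135 and 113 in alpha cells with DMSO and 216, 220.4 and 211 with GW8510, which was a rise of 1.59-fold (log2 0.67, SE 0.16, adjusted p = 0.00529). The beta arrays read 89.0, 92.2 and 106 with DMSO and 116, 92.3 and 149 with GW8510. These beta groups overlapped, and the log2 fold change was 0.29 (interval -0.06 to 0.64, adjusted p = 0.203). It passed only without beta GW8510 replicate 2, at 0.46 (adjusted p = 0.0398), and was 0.11 without replicate 3 (adjusted p = 0.644).

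Bbc3 encodes PUMA, a BH3-only protein that binds the guardians of the BCL2 family. Its probe set (1423315_at) read 228, 232 and 212 in alpha cells with DMSO and 334, 313 and 328 with GW8510. In beta cells it read 155, 157 and 164 with DMSO and 183, 208 and 226 with GW8510. Treated and control arrays lay apart in both lines. The rise was 1.45-fold in alpha cells (log2 0.54, 95% interval 0.37 to 0.70, adjusted p = 0.000107) and 1.29-fold in beta cells (log2 0.37, interval 0.20 to 0.53, adjusted p = 0.00265). Without beta GW8510 replicate 3 the beta value was 0.30 (adjusted p = 0.00748).

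Apaf1, the scaffold of the apoptosome, rose in alpha cells on both of its probe sets. On 1452870_at the alpha arrays read 209, 219 and 240.6 with DMSO and 663, 608 and 661 with GW8510, and the beta arrays 508, 485 and 485 with DMSO and 473, 483 and 538 with GW8510. The treated alpha arrays lay above all others, and the beta groups overlapped at a level between both alpha groups. The alpha mean went from 223 ± 16.4 to 644 ± 31.2, 2.90-fold (log2 1.53, SE 0.07, adjusted p = 1.3e-08). In beta cells the log2 fold change was 0.01, with an interval of -0.14 to 0.17 (adjusted p = 0.911).

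The dimmer Apaf1 probe set, 1450223_at, read 53.9, 69.1 and 51.8 in alpha cells with DMSO and 116, 92.5 and 106 with GW8510. In beta cells it read 86.02, 90.1 and 85.1 with DMSO and 99.3, 84.5 and 111 with GW8510. Its alpha groups lay apart and its beta groups overlapped, as on the other probe set. The alpha rise was smaller, 1.81-fold (log2 0.85, SE 0.13, adjusted p = 0.000154), and the beta value was 0.17 (interval -0.11 to 0.44, adjusted p = 0.352).

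Casp9, the caspase that the apoptosome activates, changed little, and its probe sets differed. On 1437537_at the alpha arrays read 191, 194 and 196 with DMSO and 170.1, 158 and 145 with GW8510, and the beta arrays 178, 176 and 189.6 with DMSO and 208, 196 and 217 with GW8510. The treated arrays lay below the controls in alpha cells and above them in beta cells. The alpha mean fell from 194 ± 2.39 to 158 ± 12.7, which was 0.811 of the control (log2 -0.30, SE 0.07, adjusted p = 0.00318). The beta rise of 1.14-fold (log2 0.19, adjusted p = 0.0479) was lost in 12 of 21 alternative settings, and the adjusted p ranged from 0.0167 to 0.143 over all 21. It was lost without beta DMSO replicate 1 (0.13) or 2 (0.143), beta GW8510 replicate 1 (0.102) or 3 (0.127), any one of the alpha DMSO arrays (0.0632 to 0.0669) or alpha GW8510 replicate 2 (0.0653).

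Probe set 1426125_a_at of Casp9 read 108 to 118 in alpha cells with DMSO and 108 to 113 with GW8510, and the groups overlapped. In beta cells it read 110, 113 and 124 with DMSO and 124, 126 and 130.2 with GW8510. These beta groups did not overlap, although the closest arrays were 123.8 and 124. Neither change passed, with log2 fold changes of -0.06 in alpha cells (interval -0.19 to 0.08, adjusted p = 0.518) and 0.14 in beta cells (0.00 to 0.27, adjusted p = 0.11). The beta value passed without beta DMSO replicate 3, at 0.19 (adjusted p = 0.0407).

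Ei24, a p53-induced gene whose product sits in the endoplasmic reticulum, rose in alpha cells. Its probe set (1416555_at) read 799, 849 and 855 with DMSO and 1654, 1872 and 1945 with GW8510. The beta arrays read 1095, 1077 and 1085 with DMSO and 1032, 1115 and 1081 with GW8510. The treated alpha arrays lay above all others, and the beta groups overlapped. The alpha change was 2.18-fold (log2 1.13, SE 0.07, adjusted p = 7.54e-08), and in beta cells the log2 fold change was -0.01, with an interval of -0.16 to 0.13 (adjusted p = 0.898).

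Perp encodes a tetraspan membrane protein of desmosomes that p53 induces. Its probe set (1416271_at) read 158, 156 and 149.7 in beta cells with DMSO and 1288, 1409 and 1022 with GW8510. In alpha cells it read 28.7, 26.8 and 25.9 with DMSO and 31.5, 35.8 and 32.1 with GW8510. Treated and control arrays lay apart in both lines, and every beta array was far above every alpha array. The beta mean rose from 155 ± 4.49 to 1240 ± 198, 7.95-fold with an interval of 6.80 to 9.29 (log2 2.99, SE 0.10, adjusted p = 6.57e-09), the change of rank 6 by size among the 20050 probe sets tested there. On the beta arrays 46.6 to 47.5% of all probe sets were dimmer than Perp with DMSO and 79.6 to 85.3% with GW8510. In alpha cells, where 8.78 to 15.1% were dimmer, the change was 1.22-fold (log2 0.29, interval 0.06 to 0.51, adjusted p = 0.0433). That alpha call was lost in 14 of 21 alternative settings, over which its adjusted p ranged from 0.000153 to 0.178. It was lost without any one of the alpha arrays (adjusted p = 0.0514 to 0.149), without any one of the beta DMSO arrays or beta GW8510 replicate 1 (0.0535 to 0.0589), and with quantile normalization (0.178), a pseudocount of 16 (0.14), a trended spread (0.0536) or no filter on bounds (0.0578).

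The effect of GW8510 differed between the lines for 7 of the 13 probe sets, by the test of that difference (beta minus alpha), beside 26.1% of all probe sets tested. It was smaller or more negative in beta cells for 5, where the background was 10.8%, and larger for 2, where it was 15.3%. Fas differed by -2.12 on the log2 scale (SE 0.14, adjusted p = 7.26e-07), Apaf1 by -1.52 and -0.69 (adjusted p = 6.88e-07 and 0.0131), Ei24 by -1.14 (adjusted p = 3.69e-06) and Bid on 1417045_at by -0.99 (adjusted p = 0.000446). Perp differed the other way, by 2.70 (SE 0.14, adjusted p = 1.27e-07), and Casp9 on 1437537_at by 0.49 (adjusted p = 0.00235). Fas read 21.5 to 24.6 in beta cells and Perp 25.9 to 35.8 in alpha cells, close to the lower bound. A change of the transcript there can be hidden, so the Fas and Perp values are differences of readings. No difference passed for Bbc3 (-0.17, interval -0.40 to 0.06, adjusted p = 0.296), Casp8 (0.00, interval -0.39 to 0.38, adjusted p = 0.993) or either probe set of Tnfrsf10b (-0.07 and 0.08, adjusted p = 0.807 and 0.793). The second probe set of Bid, at -0.38 (interval -0.88 to 0.12, adjusted p = 0.267), passed with array weights, at -0.51 (adjusted p = 0.0344). Each difference uses all 4 groups, so it shares its arrays with both single-line comparisons. The plot of fold changes sets both lines side by side.

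**Figure D2:**
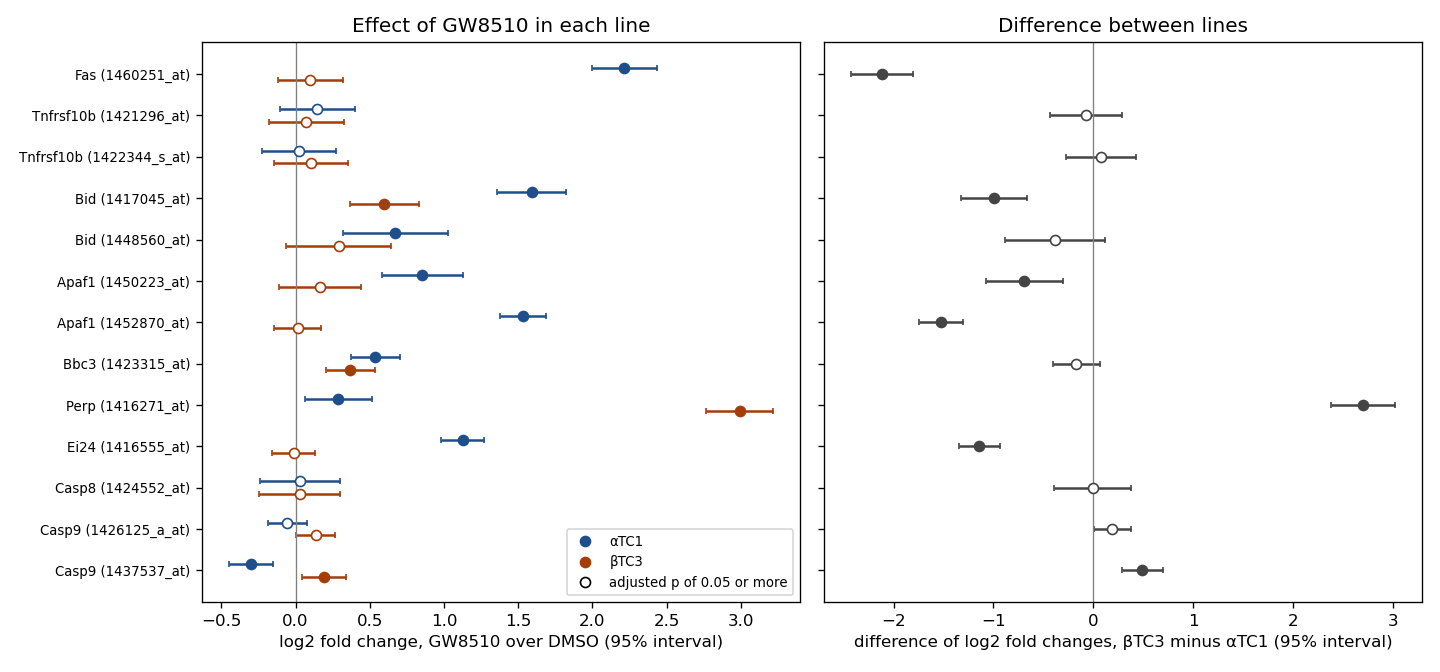
Log2 fold change of the 13 probe sets with GW8510 in each line (left) and the beta minus alpha difference of these changes (right), with 95% confidence intervals from limma over 12 arrays. Open points have an adjusted p of 0.05 or more. Fas, Bid (1417045_at), Apaf1 and Ei24 lie to the left of 0 in the right panel, and Perp lies at 2.70. The beta change of Fas and the alpha change of Perp come from readings close to the lower bound.

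With DMSO alone, 8 of the 13 probe sets differed between the lines, 5 higher and 3 lower in beta cells, beside a background of 55.5% (26.0% higher and 29.6% lower). By gene 4 were higher and 2 lower, beside 26.8% and 28.9% of all genes. The arrays lay apart for 9 of the 13, beside 29.5% of all probe sets higher and 35.9% lower, so these counts were close to those of probe sets in general. Perp was 5.70-fold higher in beta cells (log2 2.51, adjusted p = 8.41e-10), Apaf1 2.22-fold on 1452870_at (adjusted p = 3.42e-08), Casp8 2.14-fold (adjusted p = 8.24e-06) and Ei24 1.30-fold (adjusted p = 0.000298). The dimmer Apaf1 probe set was also higher, by 0.59 on the log2 scale (adjusted p = 0.00141). Bid on 1417045_at was at 0.428 of its alpha level (log2 -1.22, adjusted p = 6.92e-07), and Bbc3 was at 0.710 (adjusted p = 0.000108). The lower level of Bid on 1448560_at (log2 -0.50, adjusted p = 0.0183) did not pass without alpha DMSO replicate 1 (adjusted p = 0.0865), beta DMSO replicate 1 (0.0641) or beta DMSO replicate 2 (0.0555). Fas, both probe sets of Tnfrsf10b and both of Casp9 did not pass.

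**Figure D3:**
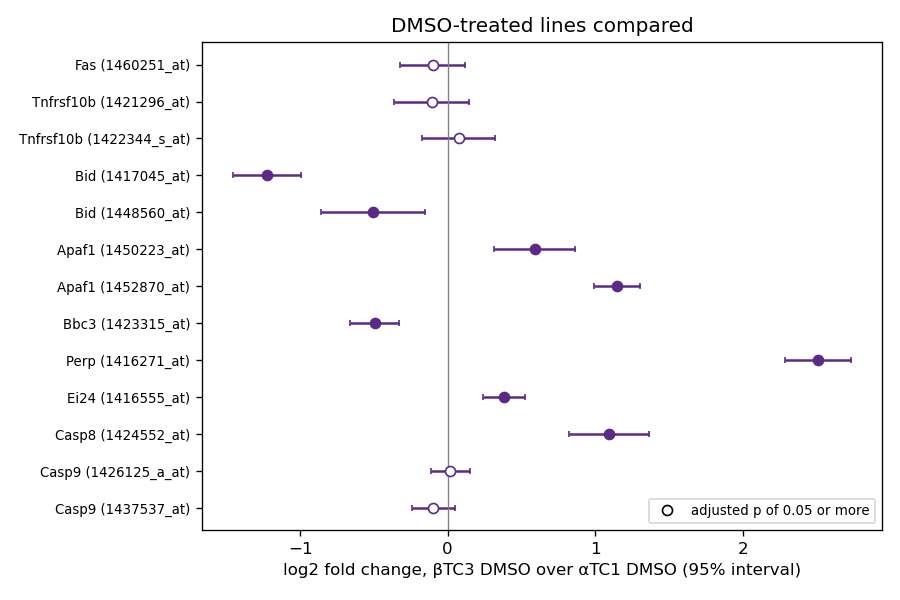
Log2 fold change of beta DMSO over alpha DMSO for the 13 probe sets, with 95% confidence intervals from limma. Open points have an adjusted p of 0.05 or more. Perp, Apaf1, Casp8 and Ei24 lie to the right of 0 and Bid and Bbc3 to the left.

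The order of the 4 groups followed no single pattern among the 9 genes. Apaf1 (1452870_at) and Ei24 were lowest in alpha cells with DMSO, intermediate in both beta groups and highest in alpha cells with GW8510, and both beta groups overlapped in that order. Bid (1417045_at) and Bbc3 ran from beta DMSO over beta GW8510 and alpha DMSO to alpha GW8510, although beta GW8510 (183 to 226) and alpha DMSO (212 to 232) overlapped for Bbc3. For Fas only alpha GW8510 stood apart, for Casp8 only the lines did, and for Perp the order was alpha DMSO, alpha GW8510, beta DMSO and beta GW8510 with no overlap between neighbours.

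Other apoptosis genes were read from 7 lists by role, which include the 9 genes, with the brightest probe set standing for a gene. Of 62 listed genes 57 were tested, and 23 rose, 7 fell and 27 did not pass in alpha cells, with a median log2 fold change of 0.15, beside 0.03 over all genes. In beta cells 16 rose, 7 fell and 34 did not pass, with a median of 0.08, beside 0.07 over all genes. The background by gene was 19.9% higher and 21.0% lower in alpha cells and 19.2% and 14.2% in beta cells. Of the 48 genes other than the 9, 17 rose and 6 fell in alpha cells, and 12 rose and 7 fell in beta cells. Pmaip1, the BH3-only gene for NOXA, was at a bound on every array, and the other listed genes outside the 57 were not analysed here.

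Among 14 death receptors, ligands and partners, 5 rose and 1 fell in alpha cells (median 0.17), and 3 rose and none fell in beta cells (median 0.06). Over all genes 19.9% rose and 21.0% fell in alpha cells, and 19.2% rose and 14.2% fell in beta cells. Tnfrsf21, the gene of death receptor DR6, rose in both lines, from 536.5 ± 23.8 to 1068 ± 116 in alpha cells (log2 0.99, adjusted p = 1.11e-06) and from 158 ± 6.52 to 345.5 ± 19.2 in beta cells (log2 1.13, adjusted p = 1.24e-06). Its other probe set gave 0.54 in alpha and 0.78 in beta cells. The TNF receptor genes Tnfrsf1b and Tnfrsf1a rose in alpha cells by 0.72 and 0.48 on the log2 scale (adjusted p = 0.0324 and 1.58e-05), with 0.22 on the other Tnfrsf1b probe set, as did Cflar, the caspase 8 antagonist (0.40, adjusted p = 0.0204), whose other probe sets gave 0.12 to 0.26. Fadd, the adaptor of FAS, fell by 0.28 on the log2 scale there (adjusted p = 0.00203). In beta cells Tnfsf10, the TRAIL gene, rose by 0.50 (adjusted p = 0.000372) and Tnfrsf1a by 0.20 (adjusted p = 0.0117).

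Of 7 BH3-only genes tested, Bid, Bbc3 and Bcl2l11, the BIM gene (0.54, adjusted p = 0.000706), rose in alpha cells and none fell (median 0.25). In beta cells Bid, Bbc3 and Bad (0.23, adjusted p = 0.0149) rose, and Bcl2l11 fell by 0.35 on the log2 scale (adjusted p = 0.0146), although its other probe sets there ranged from -0.18 to 0.66 (median of the list 0.12). Of 7 guardians and effectors of the BCL2 family, Bcl2l1, Mcl1 and Bak1 rose in alpha cells, by 0.42, 0.25 and 0.28 (adjusted p = 0.000786, 0.00293 and 0.0132), and Bak1 alone rose in beta cells, by 0.51 (adjusted p = 0.000375). Bcl2l1 and Mcl1 encode guardians that hold back cell death, whereas BAK1 permeates the outer mitochondrial membrane. Bcl2l2, another guardian, was lower in both lines, at -0.86 in alpha cells (adjusted p = 8.55e-06) and -0.56 in beta cells (adjusted p = 0.000443), but its other probe sets gave only -0.25 to 0.07 in alpha cells and -0.29 to 0.04 in beta cells. The medians of that list were 0.25 in alpha and 0.09 in beta cells. Beside both lists, the shares over all genes were 19.9% higher and 21.0% lower in alpha cells, and 19.2% and 14.2% in beta cells.

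Of 10 mitochondrial and apoptosome genes, Apaf1 and Aifm1, an oxidoreductase that moves to the nucleus in cell death, rose in alpha cells (Aifm1 0.80, adjusted p = 2.92e-06). Casp9 and the nuclease gene Endog fell there (Endog -0.20, adjusted p = 0.0489), and the median was 0.03. With 2 of 10 higher and 2 lower, these alpha counts were close to the shares over all genes, 19.9% and 21.0%. Over all genes in beta cells 19.2% rose and 14.2% fell. In beta cells Casp9, Vdac1 (0.51, adjusted p = 4.22e-05), Endog (0.30, adjusted p = 0.00891) and Aifm1 (0.24, adjusted p = 0.0243) rose, and Htra2, a protease that inactivates inhibitors of apoptosis, fell by 0.75 on the log2 scale (adjusted p = 0.000105, median of the list 0.12). Of 5 inhibitor of apoptosis genes, Naip2 and Birc3 rose in alpha cells (0.52 and 0.35, adjusted p = 0.00544 and 0.0236) and Xiap and Birc2 were lower (-0.31 and -0.21, adjusted p = 0.000823 and 0.0405, median -0.20). The other Birc3 probe set gave 0.14 there, and the other Xiap probe sets ranged from -0.60 to 0.10. In beta cells Naip2 rose (0.37, adjusted p = 0.0415), and Xiap and Birc6 were lower (-0.43 and -0.39, adjusted p = 0.000118 and 0.0198, median -0.12). Their other probe sets there gave -0.68 to -0.05 for Xiap and -0.17 and -0.49 for Birc6.

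Of 6 executioner caspases and substrates tested, Dffa, which encodes the inhibitor of the caspase-activated DNase, rose by 0.38 in alpha cells (adjusted p = 0.00875) and Rock1, a kinase that caspases activate, fell by 0.42 on the log2 scale (adjusted p = 0.00236, median 0.03). In beta cells Casp6, an executioner caspase, rose from 105 ± 4.28 to 180 ± 26.8 (log2 0.77, adjusted p = 6e-05), none fell, and the median was -0.10. Beside this list and the next, 19.9% of all genes rose and 21.0% fell in alpha cells, and 19.2% and 14.2% in beta cells. Of 8 further p53-linked genes of cell death, Perp and Ei24 among them, 7 rose in alpha cells and none fell, with a median of 0.71, and Dapk1 did not pass. The largest rises there were those of Trp53inp1 (1.62, and 2.01 on its other probe set), Ei24 and Aen, a p53-induced nuclease (0.79, adjusted p = 5.2e-06). In beta cells Perp, Triap1 (0.28, adjusted p = 0.0119) and Aen (0.26, adjusted p = 0.022) rose, Dapk1, a kinase of cell death, was lower (-0.70, adjusted p = 0.000117) and so was Siva1 (-0.29, adjusted p = 0.00163), with a median of 0.10. The other Dapk1 probe set gave -0.21 there, and those of Aen 0.09 and 0.22. Trp53inp1 did not pass in beta cells. The study lists RT-PCR primers for Bid, Apaf1 and Ei24, and their direction in alpha cells is not counted as independent evidence for the lists that hold them.

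**Figure D4:**
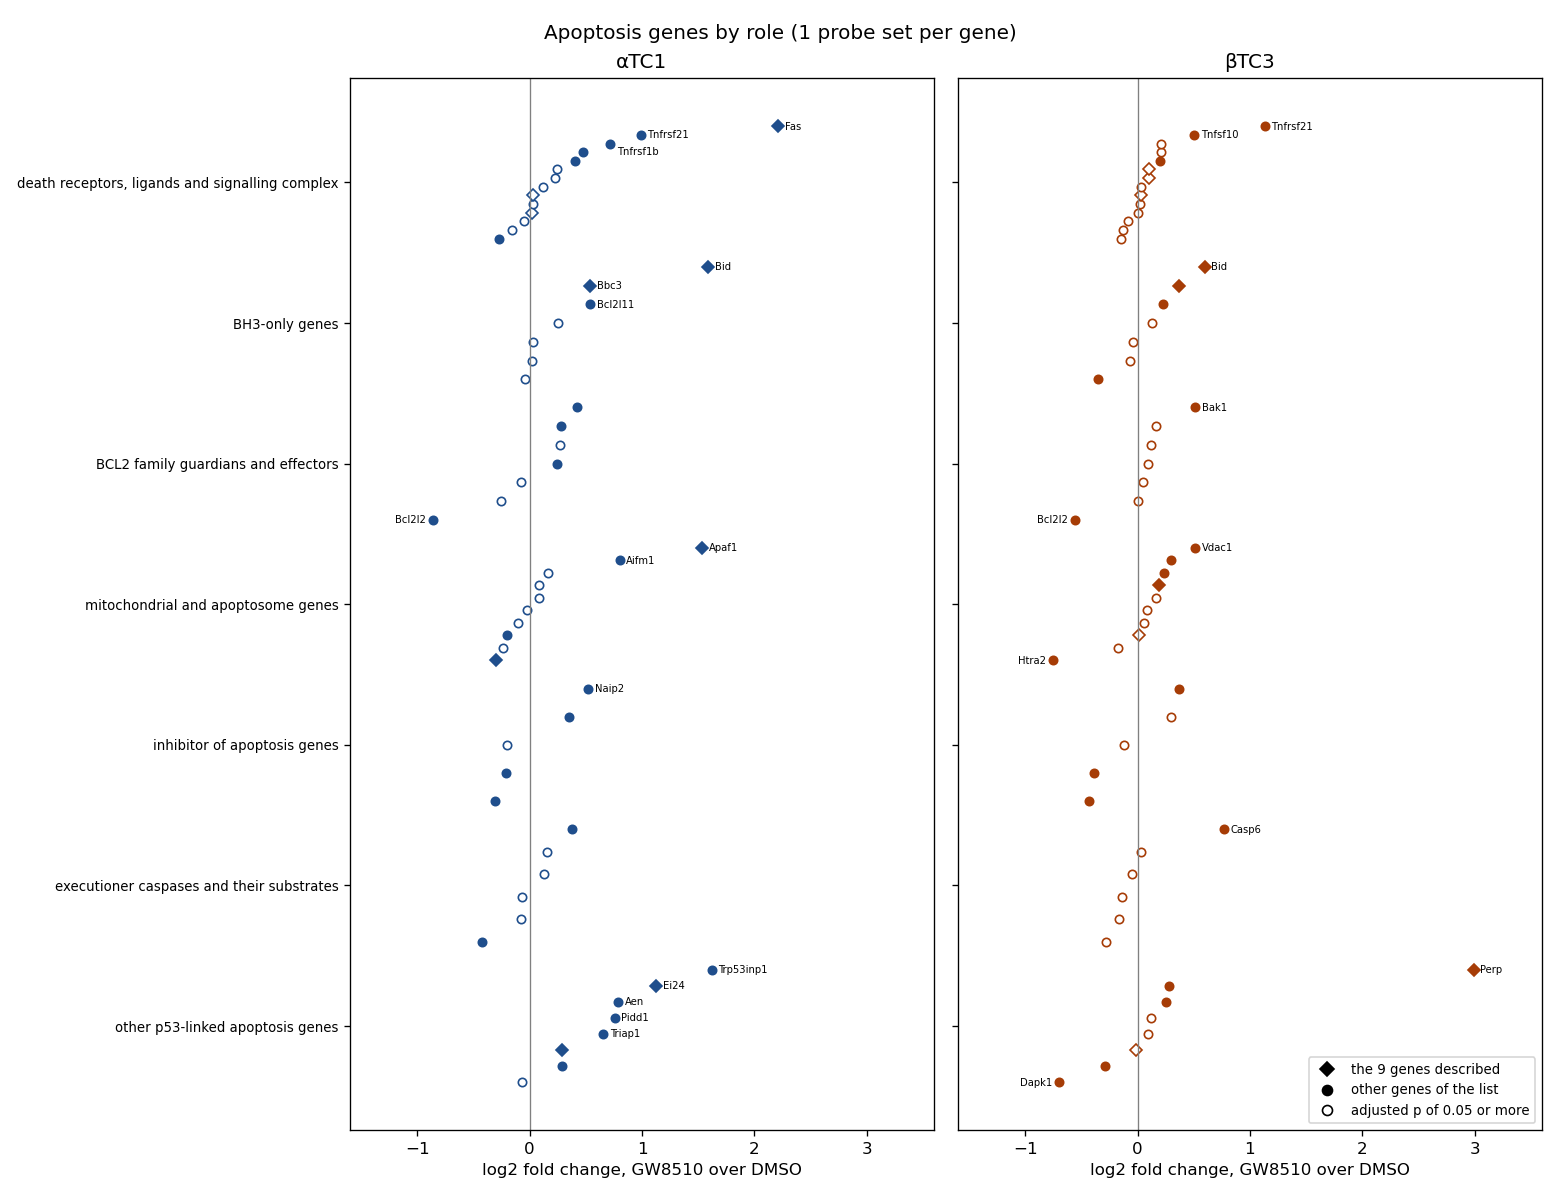
Log2 fold change with GW8510 of 57 apoptosis genes in alpha cells (left) and beta cells (right), by role, with 1 probe set per gene sorted by size within a list. Diamonds are the 9 genes described, open symbols have an adjusted p of 0.05 or more, and genes are named from a log2 change of 0.5 in either direction. In alpha cells 7 of the 8 p53-linked genes, Perp and Ei24 among them, lie to the right of 0 and passed, beside 19.9% of all genes. The alpha call of Perp was lost in 14 of 21 alternative settings. In beta cells 3 passed upward, beside 19.2% of all genes, and 2 passed downward, beside 14.2%.

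Genes with a like course over the 12 arrays were ranked by the Pearson correlation of log2 intensity among 2591 genes with an SD of at least 0.5, as a description, since the arrays share lines and treatments. For Fas these were Car13 (r = 0.994) and Tek (0.993), which on average read 22.0 and 21.4 in alpha cells with DMSO and 54.9 and 219.7 with GW8510. For Apaf1 they were Ptp4a3 (0.995) and Bscl2 (0.985), for Ei24 Cyb5a (0.991) and Gstm2 (0.981), for Bid Vps33b (0.996) and Polrmt (0.996), and for Bbc3 Gfer (0.986) and Plin2 (0.986). For Perp they were Slc39a8 (0.997), which was at the lower bound in alpha cells and rose on average from 78.3 to 394 in beta cells, and C4bp (0.996). For Casp8, which follows the line, they were Dpp4 (0.977) and Akr1c12 (0.974), and for Casp9 Slc37a4 (0.918) and Porcn (0.904). Tnfrsf10b had no close match, with 0.661 for Foxq1 and 0.646 for Fmo2.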

How the data were processed

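Affymetrix mouse expression arrays, on which 1 or more probe sets read a gene, were run on the RNA of 12 cultures. The deposited values are array intensities that the authors, per the labels, made with RMA (submitters' processing notes, no version given), on a linear scale bounded at 20 and 20000. Where the bounds were set is not given in the sources used here. A change is understated where a level lies near the lower bound. Of 22690 probe sets, 64 are controls, 20380 carry 1 gene symbol in the platform annotation, 691 several and 1555 none. Those at a bound on all arrays (330) were left out, and 20050 were tested.

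Log2 intensities of all 12 arrays were fitted with limma 3.58.1 in R 4.3.3 (4 group means, empirical Bayes, 8 residual and 3.48 prior degrees of freedom), with Benjamini-Hochberg adjustment over all probe sets. The methods name no test for the arrays. For counts by gene, the probe set with the highest mean was taken. The number of arrays limits the precision, with a median standard error of 0.09 on the log2 scale. Replicates are biological per the labels. In both lines the source names of GW8510 replicates 2 and 3 give another compound number, while titles, descriptions and compound tags read GW8510, which was used. Within a line, no pairing by replicate number was visible (correlations of deviations -0.13 to 0.06), so the main fit used no block. The study calls its vehicle controls matched, and which arrays were matched is not given in the labels.

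The 9 genes and the lists were chosen with earlier results of these data known. All probe sets of the 9 genes are described. Of each list, up to 3 genes with the largest changes that passed in a line are named, plus those behind a count of 5 or fewer, and for each of the 9 genes the 2 most correlated genes. Promoters were searched on both strands. Settings varied were quantile normalization, the probe set of a gene, filters on dim probe sets and on bounds, a pseudocount of 16, the estimate of spread, array weights, a replicate block, the arrays fitted and each array left out. The fit was tested on simulated data. Scripts used Python 3.11.15 and matplotlib 3.10.9.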

Additional observations from a re-analysis of the deposited data

Results flagged for a closer look

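The effect of GW8510 differed between the lines, by limma's test of the difference (beta minus alpha, log2), for 7 of the 13 probe sets. Over all probe sets tested 26.1% differed, 15.3% with a positive value and 10.8% with a negative one. Fas differed by -2.12, Apaf1 by -1.52 and by -0.69 on its dimmer probe set, Ei24 by -1.14 and Bid on 1417045_at by -0.99. The values were positive for Perp (2.70) and for Casp9 on 1437537_at (0.49). Bid on 1448560_at did not pass, at -0.38 (adjusted p = 0.267). Fas in beta cells and Perp in alpha cells lay close to the lower bound, where a change of the transcript can be hidden.

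The same test passed for 17 of the 48 other genes of the lists. Its value was negative for Trp53inp1 (-1.53, adjusted p = 2.27e-06), Bcl2l11 (-0.89, adjusted p = 0.000494), Pidd1 (-0.64, adjusted p = 0.000312), Dapk1 (-0.63, adjusted p = 0.00331), Siva1 (-0.57, adjusted p = 0.000198), Aifm1 (-0.56, adjusted p = 0.00165), Aen (-0.53, adjusted p = 0.00322), Htra2 (-0.52, adjusted p = 0.0155), Dffa (-0.52, adjusted p = 0.0164), Triap1 (-0.37, adjusted p = 0.0221), Cycs (-0.34, adjusted p = 0.0205) and Tnfrsf1a (-0.28, adjusted p = 0.0166). It was positive for Casp6 (0.62, adjusted p = 0.00421), Tnfsf10 (0.55, adjusted p = 0.00281), Vdac1 (0.54, adjusted p = 0.000546), Endog (0.50, adjusted p = 0.0041) and Rock1 (0.37, adjusted p = 0.0498). On other probe sets the difference was near 0 or of the other sign for Htra2 (0.04), Dapk1 (-0.05) and 1 probe set of Bcl2l11 (0.15, with -0.64 to -0.28 on the rest), and it was 0.08 on 1 of Vdac1. Over all genes, 15.9% had a positive and 11.7% a negative difference that passed. The part that the lines' different DMSO levels have in these differences was not tested.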

How the results depend on the processing

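In the settings that hold all 13 probe sets, 8 to 9 passed in alpha cells, 3 to 5 in beta cells, 7 to 8 for the difference and 7 to 8 between the DMSO groups. In the main fit the shares over all probe sets were 39.6%, 32.4%, 26.1% and 55.5% in that order. With 1 probe set per gene 7, 4, 6 and 6 of 9 passed, and without the dimmest 25% 8, 4, 6 and 8 of 10. With the replicate number as a replicate block, 9 passed in alpha and 3 in beta cells, where Casp9 on 1437537_at was lost (adjusted p = 0.0749). With 1 probe set per gene (12255 features, in place of 20050), the features that passed were 5075 in alpha cells (2473 higher, 2602 lower), 4178 in beta cells (2414 higher, 1764 lower), 6846 between the DMSO groups (3292 higher, 3554 lower) and 2023 higher for the difference, fewer because fewer features were tested. With array weights 3577 differences were lower. Fas and Tnfrsf10b have no value without the dimmest 25%.

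Among the values of the 9 genes, the sign turned only for results that did not pass. With quantile normalization Tnfrsf10b on 1422344_s_at and Casp8 gave -0.036 and -0.026 in alpha cells, and Apaf1 on 1452870_at and Casp8 gave -0.017 and -0.033 in beta cells. With a pseudocount of 16 the Casp8 difference was 0.0022. With array weights the values were -0.017 (Casp8, alpha), -0.039 (Apaf1 on 1452870_at, beta), 0.037 (Tnfrsf10b on 1421296_at, difference) and 0.072 (Casp8, difference).

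With each array left out in turn, Casp8 ranged from -0.0958 to 0.102 in alpha cells, from -0.09997 to 0.101 in beta cells and from -0.131 to 0.123 for the difference. Tnfrsf10b on 1422344_s_at ranged from -0.0325 to 0.0770 (alpha), -0.0186 to 0.195 (beta), -0.0414 to 0.172 (difference) and -0.0198 to 0.154 (DMSO groups). Tnfrsf10b on 1421296_at ranged from -0.0128 to 0.117 (beta) and -0.173 to 0.0235 (difference), Apaf1 on 1452870_at from -0.0441 to 0.0499 (beta), Ei24 from -0.0401 to 0.0155 (beta) and Casp9 on 1426125_a_at from -0.0348 to 0.0527 (DMSO groups). The cause was not tested.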
